A study of Mus musculus with 8 samples.

Results

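TGFβ leaves the cell in a latent form, and the genes described here make the machinery that stores this latent growth factor in the matrix and releases it. They are *Ltbp1*, *Ltbp2*, *Ltbp3* and *Ltbp4*, which encode the latent TGFβ binding proteins, *Itgav*, *Itgb5* and *Itgb8*, which encode integrin subunits αv, β5 and β8, and *Furin*, which encodes a proprotein convertase. The 8 genes were chosen by symbol for their role, with earlier results of these data known, and all 8 were among the 15111 genes of the deposited expression table. RNA was sequenced from primary dermal fibroblasts of *Tgfb1*fl/fl mice, which served as controls, and of *Tgfb1*fl/fl:*Col1a2-CreERT* mice, termed TGFβ1FKO, with 4 libraries per group. All mice were adults fed tamoxifen and were 10 weeks old when the cells were isolated, and the floxed *Tgfb1* allele was present in both groups. Cre recombinase was driven by the *Col1a2* promoter, and the controls carried no Cre. The cells came from back skin including the epidermis, were first grown in serum, and were then kept on fibronectin for 72 h in serum replacement medium. Neither the labels nor the study's methods state that each library came from a separate mouse, so the p-values measure the spread between libraries, which may be partly technical.

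TGFβ is made as a precursor that furin-type convertases cut into the growth factor and its latency-associated peptide, which stay bound to each other. LTBP1, LTBP3 and LTBP4 are linked to this peptide by disulphide bonds and anchor the latent complex to fibronectin and fibrillin fibres, whereas LTBP2 is a matrix protein of the same family that does not bind latent TGFβ. Some integrins that contain αv recognise an RGD motif in the peptide of TGFβ1 and release the growth factor. In the dermis, fibroblasts are a main source of the matrix fibres that hold latent TGFβ.

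The libraries held between 16988998 and 21806579 reads on the listed genes in the control group and between 17445002 and 23071528 in the TGFβ1FKO group. *Tgfb1* checked the genotype labels, with 1401, 1298, 1483 and 1314 normalised read counts in controls 1 to 4 and 326.4, 259.9, 228.4 and 294.7 in TGFβ1FKO libraries 1 to 4. All TGFβ1FKO libraries were far below all controls, and the log2 fold change was -2.31 (SE 0.10, limma adjusted p = 1.53e-07). Fibroblast markers were abundant in every library, and the sum of 8 of them, *Col1a1* and *Pdgfra* included, ranged from 1286180 to 1587070 normalised counts in controls and from 1336290 to 1491040 in TGFβ1FKO. The keratinocyte genes *Krt5*, *Krt14* and *Epcam* and the leukocyte genes *Ptprc* and *Adgre1* were not among the genes of the table.

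Of the 8 storage and activation genes, 0 passed the test, which required a limma p-value under 0.05 after adjustment over all genes and a log2 fold change beyond 0.6 in either direction. Over all genes 0.086% passed. An unadjusted limma p under 0.05 was reached by 2 of the 8, *Itgb8* and *Ltbp4*, against 7.46% of all genes, and *Ltbp4* did not reach it in every fit with 1 library left out. Only for *Itgb8*, 1 of the 8, did the groups not overlap, against 3.79% of all genes. The median log2 fold change of the 8 genes was -0.08, with 5 below and 3 above 0, beside a median of 0.003 over all genes. *Itgb8* stood at -1.45, whereas the other 7 genes lay between -0.34 and 0.19.

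**Figure D1:**
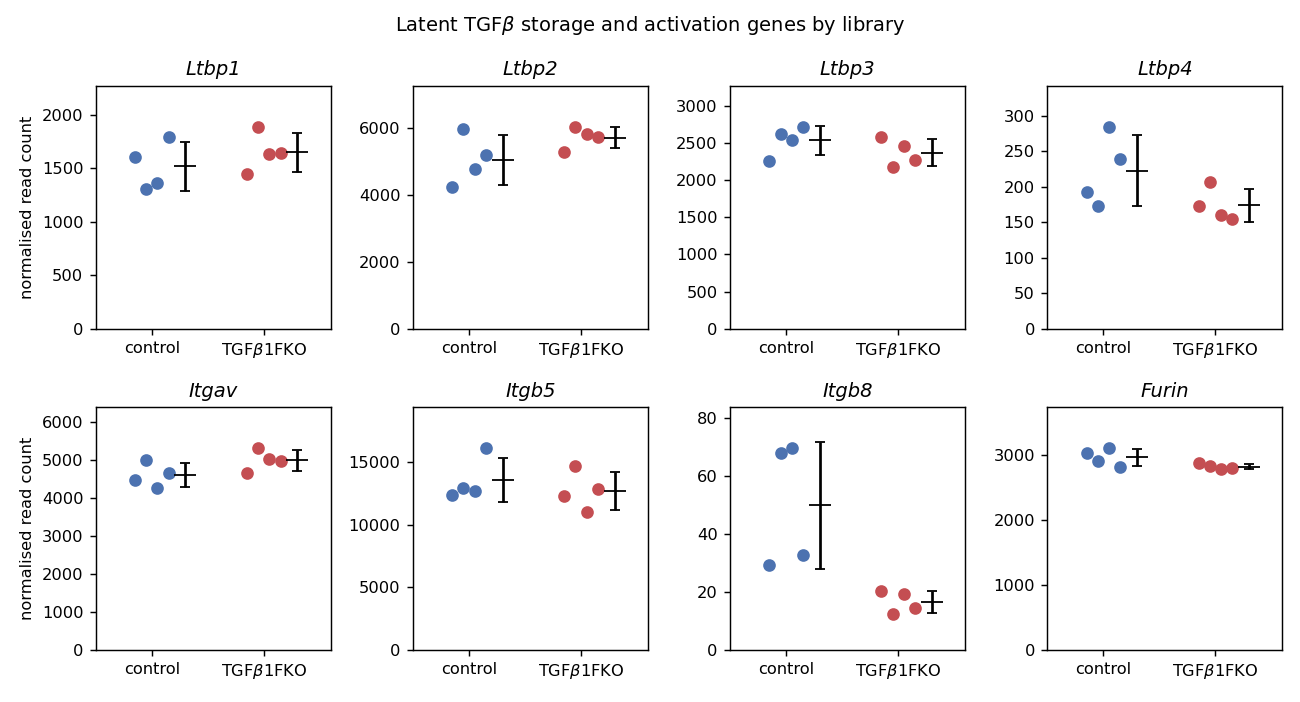
Normalised read counts of the 8 genes in each library, with control libraries in blue and TGFβ1FKO libraries in red, in order of replicate number, and the mean ± SD in black (n = 4 per group). *Itgb8* is the gene whose groups do not overlap, with controls between 29.2 and 69.9 and TGFβ1FKO libraries between 12.4 and 20.3.

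Among the binding proteins, *Ltbp1* encodes the founding member, which carries latent TGFβ to fibronectin and fibrillin. *Ltbp1* gave 1610, 1303, 1367 and 1795 normalised counts in controls 1 to 4 and 1447, 1890, 1630 and 1640 in TGFβ1FKO libraries 1 to 4. The groups overlapped, since control 4 was above 3 of the 4 TGFβ1FKO libraries and controls 2 and 3 were below all of them. With a log2 fold change of 0.13 (SE 0.10, limma adjusted p = 0.81), the 95% interval ran from 93.6% to 127.3% of the control level.

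*Ltbp2* was the most abundant binding protein gene, with 4221, 5983, 4785 and 5183 normalised counts in the controls and 5271, 6040, 5823 and 5722 in TGFβ1FKO. Control 2 lay among the TGFβ1FKO libraries, and the other controls were below all of them. The log2 fold change was 0.19 (SE 0.09, limma adjusted p = 0.671), with an interval from 99.8% to 130.4% of the control level. With 1 library left out it ranged from 0.11 without control 1 (limma adjusted p = 0.813) to 0.28 without control 2 (limma adjusted p = 0.375). *Ltbp2* shares 764 bases of exon with the antisense gene *D030025P21Rik*, and the libraries did not keep the strand. That gene was at 15.2 ± 3.88 (SD, n = 4) normalised counts in controls and 17.1 ± 8.71 in TGFβ1FKO, far below *Ltbp2*. Whether the overlap changed the *Ltbp2* count was not tested.

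*Ltbp3*, a carrier of latent TGFβ known for its role in bone and tooth development, stood at 2263, 2628, 2541 and 2723 normalised counts in the controls and at 2578, 2182, 2460 and 2272 in TGFβ1FKO. Control 1 was among the low libraries and TGFβ1FKO library 1 among the high ones, so that the groups overlapped. Its log2 fold change was -0.10 (SE 0.07, limma adjusted p = 0.787).

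*Ltbp4*, which also takes part in elastic fibre assembly, was the least abundant of the family. It had 192.7, 173.2, 285.0 and 240.0 normalised counts in the controls and 172.3, 207.1, 160.3 and 155.1 in TGFβ1FKO. Controls 3 and 4 were above all TGFβ1FKO libraries, and controls 1 and 2 lay among them. The means were 222.7 ± 50.1 and 173.7 ± 23.4 (SD, n = 4), and the log2 fold change was -0.34 (SE 0.15, limma adjusted p = 0.665). Its interval, from 62.7% to 99.6% of the control level, lay just below the control level, while a two-sided exact permutation test of the mean log2 values gave p = 0.114. With 1 library left out the log2 fold change of *Ltbp4* ranged from -0.45 without control 2 (limma adjusted p = 0.472) to -0.21 without control 3 (limma adjusted p = 0.953).

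No single binding protein gene passed the test. The make-up of the family was also compared, as planned, per length, as normalised counts per kb of exon. *Ltbp2* made up 57.3 ± 3.58% of the summed level of the 4 genes in controls and 61.1 ± 1.43% in TGFβ1FKO, *Ltbp3* 26.1 ± 0.96% and 23.0 ± 2.43%, *Ltbp1* 13.4 ± 2.47% and 13.5 ± 1.04%, and *Ltbp4* 3.24 ± 0.80% and 2.35 ± 0.27% (SD, n = 4). Two-sided exact permutation tests gave p = 0.143 for *Ltbp2*, p = 0.0571 for *Ltbp3*, p = 0.886 for *Ltbp1* and p = 0.0857 for *Ltbp4*, and the smallest p that 4 libraries against 4 allow is 0.0286. Adjusted over the 6 composition measures compared, these exact p-values were 0.171, 0.114, 0.886 and 0.129. The summed level was 1073 ± 101.9 per kb in controls and 1141 ± 41.9 in TGFβ1FKO (exact permutation p = 0.286).

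The 3 binding proteins that carry latent TGFβ were then set against the ligand genes. The summed level per kb of *Ltbp1*, *Ltbp3* and *Ltbp4* was 0.442, 0.487, 0.455 and 0.566 of that of *Tgfb1*, *Tgfb2* and *Tgfb3* in controls 1 to 4, and 0.736, 0.588, 0.627 and 0.626 of it in TGFβ1FKO libraries 1 to 4. All TGFβ1FKO libraries were above all controls, with a ratio of the means of 1.32 (two-sided exact permutation p = 0.0286, 0.0857 adjusted over the 6 measures). This measure contains the deleted gene in its denominator. With *Tgfb1* left out of the ligands the values were 0.686 ± 0.0791 in controls and 0.702 ± 0.0846 in TGFβ1FKO (SD, n = 4, exact permutation p = 0.686), and the groups overlapped.

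The ligand sum fell from 939.9 ± 50.8 to 692.3 ± 66.3 normalised counts per kb, with *Tgfb1* at 29.0 ± 0.50% of it in controls and 8.08 ± 1.98% in TGFβ1FKO. All ligand shares given here depend on the gene length used. For *Tgfb1* it was the union of exons, 5042 bases, whereas its longest transcript has 2573. *Tgfb3* was the most abundant ligand gene in both groups, at 1947 ± 105.0 and 1807 ± 195.0 normalised counts, and its log2 fold change was -0.11 (SE 0.08, limma adjusted p = 0.76). *Tgfb2* stood at 533.0 ± 51.8 and 597.3 ± 105.9 (log2 fold change 0.15, SE 0.12, limma adjusted p = 0.81). Neither of the other two ligand genes passed the test, and the higher shares of *Tgfb3* (61.2% and 77.1%) and *Tgfb2* (9.79% and 14.8%) are shares of a smaller sum.

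**Figure D2:**
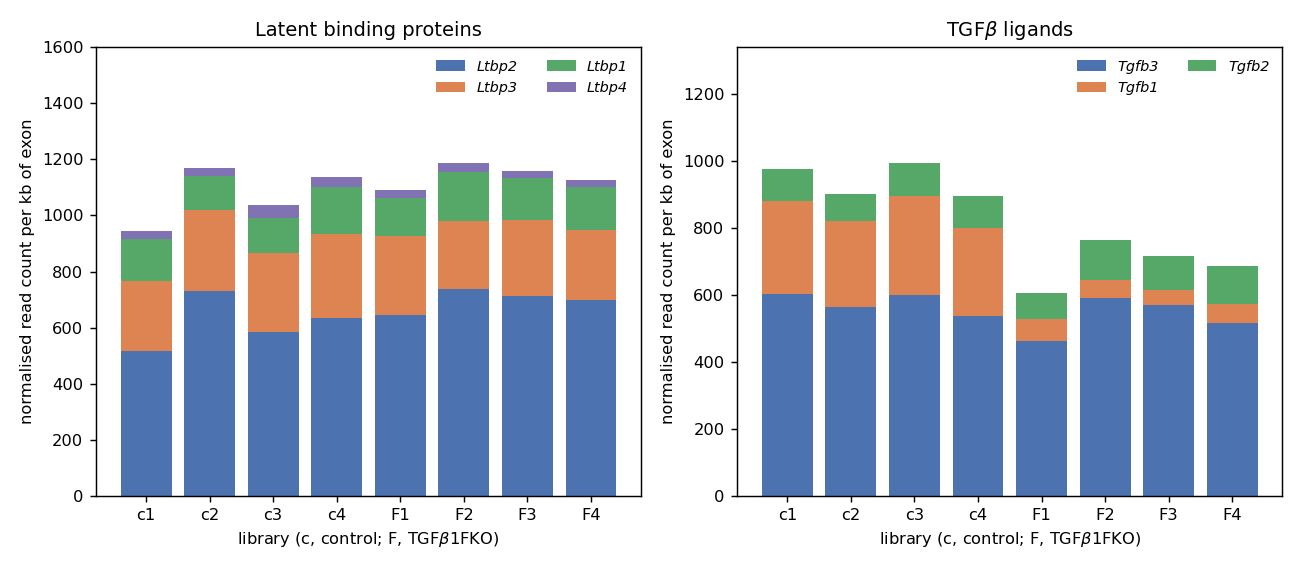
Level per kb of exon in each library (c1 to c4, controls; F1 to F4, TGFβ1FKO), stacked by gene, for the 4 binding proteins on the left and the 3 TGFβ ligands on the right. The binding protein bars are of like height in both groups (mean 1073 and 1141 per kb), while the *Tgfb1* segment of the ligand bars is small in all 4 TGFβ1FKO libraries.

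Of the integrin genes, *Itgav* encodes the αv subunit, which is shared by the TGFβ-activating integrins. *Itgav* gave 4485, 5003, 4254 and 4655 normalised counts in the controls and 4652, 5328, 5024 and 4966 in TGFβ1FKO. Control 2 lay among the TGFβ1FKO libraries, and TGFβ1FKO library 1 lay among the controls. The log2 fold change was 0.12 (SE 0.06, limma adjusted p = 0.686), with an interval from 99.1% to 119.0% of the control level. *Itgav* shares 634 bases of exon with *Gm13684* on the other strand, a transcript that is not in the table, and *Furin* shares 118 bases with the antisense gene *Gm44851*, which is not in it either.

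*Itgb5* encodes β5, which with αv forms an integrin that releases TGFβ under cell traction. It gave 12404, 12970, 12737 and 16161 normalised counts in the controls and 12313, 14664, 11010 and 12826 in TGFβ1FKO. Control 4 stood apart from the other controls, which were within the range of the TGFβ1FKO libraries. The log2 fold change was -0.09 (SE 0.10, limma adjusted p = 0.853), and without control 4 it was -0.007.

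*Itgb8* encodes β8, whose integrin αvβ8 binds latent TGFβ with high affinity and is best known from glia, dendritic cells and fibroblasts. The controls held 29.2, 68.0, 69.9 and 32.6 normalised counts, from 34, 64, 63 and 33 reads. The TGFβ1FKO libraries held 20.3, 12.4, 19.1 and 14.4, from 20, 12, 23 and 13 reads. All TGFβ1FKO libraries were below all controls, and the controls themselves fell into a pair of higher libraries, 2 and 3, and a pair of lower ones, 1 and 4. The means were 49.9 ± 22.0 and 16.6 ± 3.74 (SD, n = 4), with a log2 fold change of -1.45 (SE 0.32) and an interval from 22.7% to 58.8% of the control level. *Itgb8* did not pass the test over all genes (limma adjusted p = 0.169), and the two-sided exact permutation test of the mean log2 values gave p = 0.0286, the smallest that the design allows. With any single library left out the log2 fold change lay between -1.67 and -1.26, and in bulk RNA fewer cells that express *Itgb8* and less *Itgb8* RNA per cell cannot be told apart.

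Genes that mark Schwann cells, the glia of peripheral nerve, moved in the same libraries. The 7 such markers were chosen with earlier results of these data known. Of these, 2 passed the test (*Sox10* and *Foxd3*), against 0.086% of all genes. In 6 all TGFβ1FKO libraries were below all controls, while the groups did not overlap, in either direction, for 3.79% of all genes. The median log2 fold change of the 7 markers was -2.56. Their summed level was 611.7, 779.9, 947.0 and 442.5 normalised counts in controls 1 to 4 and 286.9, 197.8, 248.3 and 237.1 in TGFβ1FKO libraries 1 to 4. *Sox10*, the glial and melanocyte lineage factor, stood at 132.5, 147.7, 207.4 and 72.1 in the controls and at 19.3, 7.25, 18.3 and 21.1 in TGFβ1FKO. *Gjc3*, a glial connexin gene, was listed at 0 in TGFβ1FKO library 2 and at 2.03 to 4.98 in the others of that group.

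As with *Itgb8*, controls 2 and 3 had the highest sums of the Schwann cell markers, and of the other controls, control 4 was the lower in this sum and control 1 the lower in *Itgb8*. The sum of 6 endothelial markers, including *Pecam1* and *Cdh5*, was also highest in controls 2 and 3, at 784.1 and 730.7 against 646.9 and 497.8 in controls 1 and 4. In TGFβ1FKO this sum ranged from 488.6 to 526.1. Of the 6, 0 passed the limma test and 1 was at an unadjusted p under 0.05 (7.46% of all genes). The log2 fold changes of the 6 were all below 0, from -0.99 for *Pecam1* to -0.17 for *Kdr*, with a median of -0.45. The groups overlapped in all 6 (they did not in 3.79% of all genes). The melanocyte markers *Mitf*, *Pmel* and *Mlana*, the 3 of 5 in the table, summed to between 215.1 and 332.8 in controls and to between 219.2 and 308.6 in TGFβ1FKO. The sum of the 4 macrophage markers in the table was 561.0 to 644.9 in controls and 372.0 to 615.2 in TGFβ1FKO, that of 3 keratinocyte markers 91.2 to 119.5 and 91.3 to 124.3, and that of 6 mural cell markers 1678 to 2410 and 1803 to 2470. None of these markers passed the limma test, and an unadjusted p under 0.05 was reached by 0 of the 4, 1 of the 3 and 2 of the 6, against 7.46% of all genes. The keratinocyte marker was *Trp63* (log2 fold change 0.57, limma adjusted p = 0.632), with 3 of the 4 TGFβ1FKO libraries above all controls. The log2 fold changes of *Krt10* (-0.0007) and *Cdh1* (-0.01) lay just below 0. *Myh11*, a smooth muscle myosin gene of the mural list, was higher in all TGFβ1FKO libraries than in any control (log2 fold change 0.71, limma adjusted p = 0.0649). The other mural marker at an unadjusted limma p under 0.05 was *Cspg4*, the NG2 proteoglycan gene. It lay lower in TGFβ1FKO (log2 fold change -0.50, limma adjusted p = 0.599), with 3 of the 4 TGFβ1FKO libraries below all controls. As for *Itgb8*, the highest *Cspg4* values were in controls 2 and 3, at 787.3 and 725.2 normalised counts against 409.5 and 477.0 in controls 1 and 4. Of the other 4 mural markers, *Mcam* (-0.26) and *Des* (-0.16) had log2 fold changes below 0, and *Notch3* (0.24) and *Rgs5* (0.17) above it. Whether other cells in the cultures had a part in the *Itgb8* difference was not tested.

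**Figure D3:**
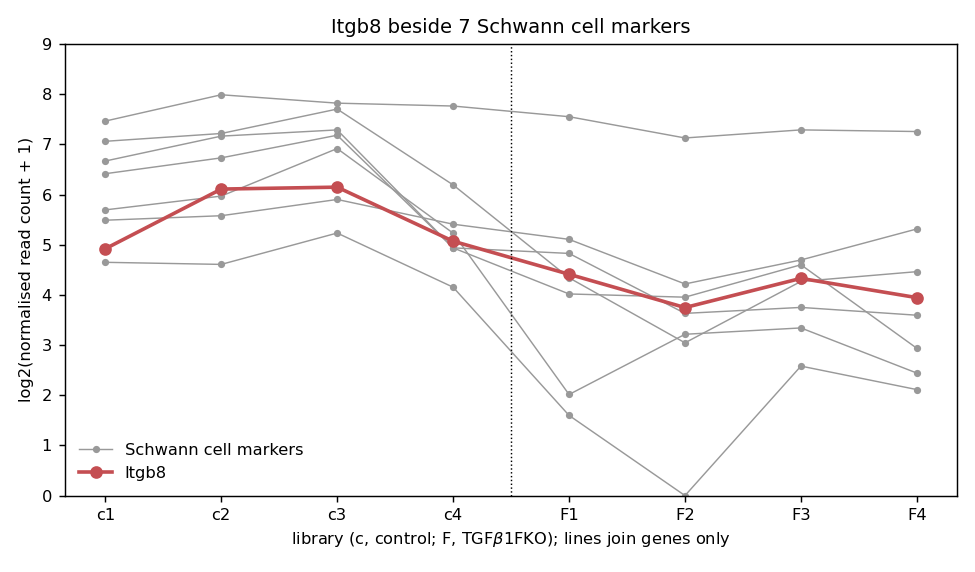
log2(normalised read count + 1) of *Itgb8* (red) and of 7 Schwann cell markers (grey) in each library (c1 to c4, controls; F1 to F4, TGFβ1FKO), where lines join the values of a gene. *Itgb8* and 6 of the 7 markers are lower in all 4 TGFβ1FKO libraries than in any control, and the uppermost grey line is *Mbp*, whose groups overlap.

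The RNA levels of β subunits that can pair with αv were compared per length. Pairing itself was not measured, and β1 also has other partners, such as the product of *Itga8*. In controls *Itgb1* made up 57.4 ± 3.44% of the summed level per kb of *Itgb1*, *Itgb3*, *Itgb5* and *Itgb8*, *Itgb5* 39.1 ± 3.39%, *Itgb3* 3.49 ± 0.08% and *Itgb8* 0.0467 ± 0.0217% (SD, n = 4). In TGFβ1FKO these shares were 60.1 ± 3.01%, 36.2 ± 2.91%, 3.71 ± 0.25% and 0.0153 ± 0.0042%. *Itgb6*, the β6 subunit of epithelial cells, was not in the table. As a share of *Itgb5* and *Itgb8* together, *Itgb8* was 0.121 ± 0.059% in controls and 0.0430 ± 0.0136% in TGFβ1FKO (exact permutation p = 0.0286, 0.0857 adjusted over the 6 measures). *Itgb8* was thus a very small share of the β subunit RNA in both groups, and *Itgb1* and *Itgb5* were most of it.

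None of the other integrin genes passed the test. *Itgb1* gave a log2 fold change of 0.08 (SE 0.06), *Itgb3* of 0.10 (SE 0.08), *Itga5*, the α subunit of the fibronectin receptor, of 0.12 (SE 0.06), and *Itga8*, the partner of β1 in another RGD-binding integrin, of 0.40 (SE 0.20), with limma adjusted p-values from 0.671 to 0.81. All 4 values were above 0.

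*Furin*, the convertase that cuts the TGFβ precursor, was the steadiest of the 8 genes. It gave 3025, 2900, 3110 and 2821 normalised counts in the controls and 2881, 2829, 2780 and 2792 in TGFβ1FKO. The TGFβ1FKO libraries lay at or just below the lower controls, with control 4 among them. The means were 2964 ± 128.9 and 2821 ± 45.3 (SD, n = 4), and the log2 fold change was -0.07 (SE 0.05, limma adjusted p = 0.767), with an interval from 88.5% to 102.4% of the control level. Of the convertase genes, *Furin* held 60.2 ± 2.18% of the summed level per kb in controls and 58.9 ± 1.71% in TGFβ1FKO, followed by *Pcsk7* (22.3 ± 0.88% and 22.6 ± 1.27%), *Pcsk6* (14.5 ± 2.40% and 15.9 ± 3.00%) and *Pcsk5* (2.96 ± 0.72% and 2.58 ± 0.61%). The log2 fold changes of the other convertases were -0.02 for *Pcsk7*, 0.09 for *Pcsk6* and -0.24 for *Pcsk5*, and none passed the test.

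Set in order by level per kb, the 8 genes ran from *Itgb5* through *Ltbp2*, *Itgav*, *Furin*, *Ltbp3*, *Ltbp1* and *Ltbp4* to *Itgb8* in both groups. *Itgb5* stood at 3819 ± 490.9 per kb in controls and 3575 ± 426.3 in TGFβ1FKO, 6.20 and 5.12 times the level of *Ltbp2*. The closest neighbours were *Furin* and *Ltbp3*, with *Furin* 1.15 times *Ltbp3* in controls and 1.17 times in TGFβ1FKO. *Ltbp4* was 7.63 times *Itgb8* in controls and 18.0 times in TGFβ1FKO, where *Itgb8* was at 1.50 ± 0.34 per kb. The ranges of the 4 libraries did not overlap for any pair of neighbours in either group, and the order was the same when the longest transcript was taken as the gene length.

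**Figure D4:**
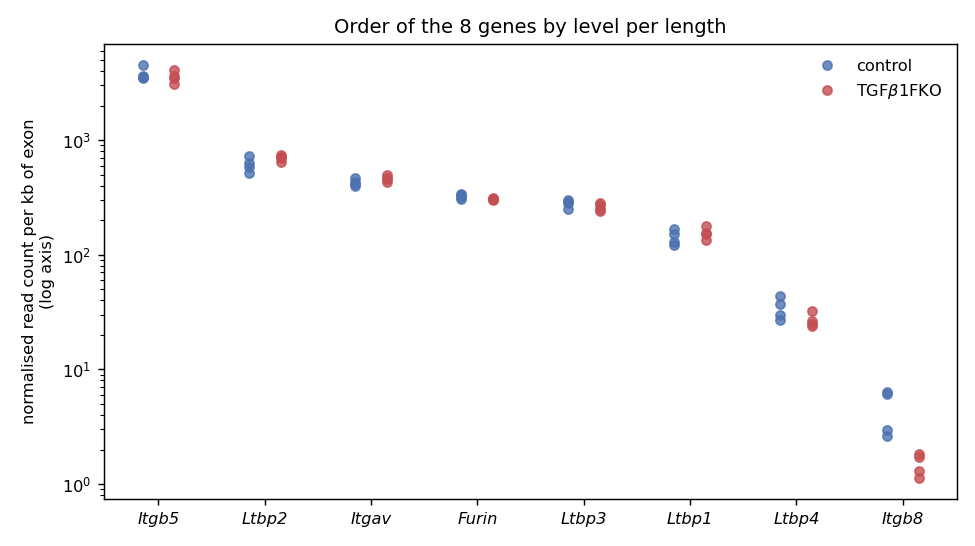
Normalised read count per kb of exon, on a log axis, of the 8 genes in control (blue) and TGFβ1FKO (red) libraries, with 1 point per library (n = 4 per group) and the genes in order of level. The order is the same in both groups, from *Itgb5* (mean 3819 and 3575 per kb) to *Itgb8* (4.51 and 1.50 per kb).

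A further list of 32 genes covered the ligands, other anchors, the matrix scaffold, other integrin subunits and convertases, and the proteases that free TGFβ from the matrix, and 30 of them were in the table (*Itgb6* and *Plg*, the plasminogen gene, were not). Of the 30, 1 passed the test, the deleted gene *Tgfb1*, against 0.086% of all genes. An unadjusted limma p under 0.05 was reached by 3, *Tgfb1*, *Mmp2* and *Lrrc32*, against 7.46% of all genes. The groups did not overlap for 3, *Tgfb1*, *Bmp1* and *Lrrc32*, against 3.79% of all genes. With the deleted gene left out, 0 of 29 passed the test, 2 reached an unadjusted limma p under 0.05 and 2 had groups that did not overlap. Without *Tgfb1* the median log2 fold change of the other 29 was -0.02, beside 0.003 over all genes, with 15 below and 14 above 0.

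*Lrrc32* encodes GARP, a membrane protein that holds latent TGFβ at the cell surface. It gave 4717, 4439, 3749 and 4434 normalised counts in the controls and 4843, 4883, 5740 and 4792 in TGFβ1FKO. All TGFβ1FKO libraries were above all controls, by little in 3 of them and by more in library 3. *Lrrc32* had a log2 fold change of 0.23 (SE 0.08, limma adjusted p = 0.555). *Nrros*, the related anchor of macrophages and microglia, was at 7.97 ± 4.50 and 7.03 ± 2.70 normalised counts, from 3 to 16 reads per library, and a difference was not detectable at this depth.

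*Bmp1*, a metalloproteinase that cuts LTBP1 and procollagens, gave 13774, 13431, 13965 and 13143 normalised counts in the controls and 13121, 12546, 12355 and 12541 in TGFβ1FKO. All TGFβ1FKO libraries were below all controls, though library 1 only just below control 4. *Bmp1* had a log2 fold change of -0.10 (SE 0.05, limma adjusted p = 0.671). *Mmp2*, the gelatinase gene with the highest level per kb among the proteases listed, gave -0.19 (SE 0.08, limma adjusted p = 0.657), with 3 of the 4 TGFβ1FKO libraries below all controls. *Mmp9* was the lowest of them, at 6.60 ± 4.78 and 7.95 ± 3.75 normalised counts.

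The matrix to which the latent complex is bound showed no call. The 9 scaffold genes ran from -0.29 for *Adamtsl2*, the least abundant of them, to 0.15 for *Fbln5*. An unadjusted limma p under 0.05 was reached by 0 of the 9, against 7.46% of all genes. *Fn1*, the fibronectin gene and the most abundant of them, gave -0.03 (SE 0.13) and *Fbn1*, the fibrillin gene, 0.10 (SE 0.12). *Thbs1*, which encodes thrombospondin, an activator of latent TGFβ, gave 0.21 (SE 0.12, limma adjusted p = 0.708), and the cross-linker *Tgm2* gave 0.28 (SE 0.26, limma adjusted p = 0.834).

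**Figure D5:**
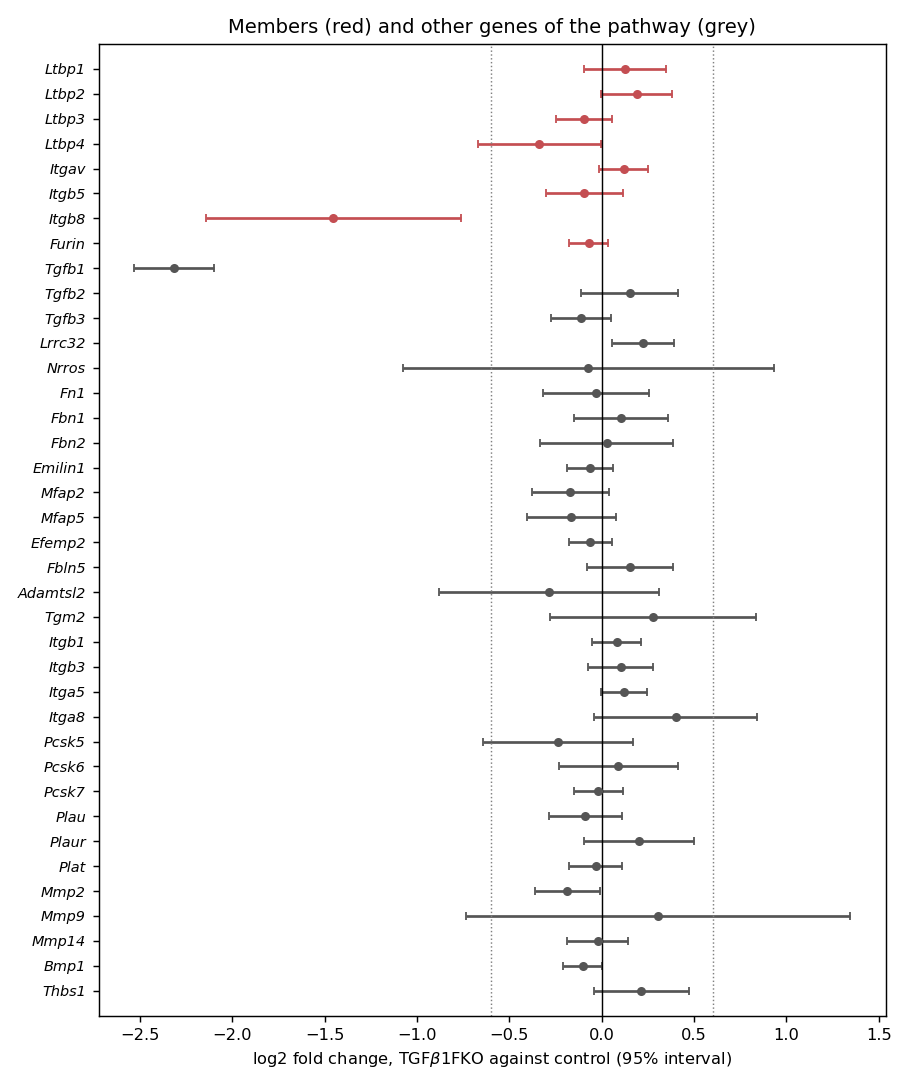
log2 fold change of TGFβ1FKO against control with its 95% interval for the 8 genes (red) and the 30 further genes of the pathway (grey), with dotted lines at the limit of 0.6 in either direction. *Tgfb1* (-2.31) and *Itgb8* (-1.45) lie beyond the limit, and the other genes lie between -0.34 and 0.40.

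Within groups, the genes whose log2 values moved most like those of each of the 8 were found among 11561 genes that averaged 50 normalised counts or more, by Pearson r over the 8 libraries after centring on the group means. For the binding proteins these were *Ppp1r3d* and *Smoc2* for *Ltbp1* (r = 0.969 for both), *Smad5* and *Ipo8* for *Ltbp2* (0.985 for both), *Senp1* and *Tecpr2* for *Ltbp3* (0.956 and 0.950), and *Fdxr* and *R3hcc1* for *Ltbp4* (0.983 and 0.981). For the integrin genes they were *Pde4dip* and *Cpd* for *Itgav* (0.990 and 0.981), *Tdrd7* and *Pcmtd2* for *Itgb5* (0.992 and 0.988), and *Rem1* and *Nov* for *Itgb8* (0.964 and 0.955), and for *Furin* they were *Cdk16* and *Chchd1* (0.987 and 0.983). No gene of the 8 was among those most like another. With so many genes compared over only 8 libraries, in which all genes share the scaling of their library, these values are a description and not a test.

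In the GRCm38 annotation the 8 genes lie on 6 chromosomes and are protein coding. *Itgb8* is at chr12:119158022-119238802 and *Ltbp2* at chr12:84783212-84876532, both on the minus strand. *Ltbp4* (chr7:27305136-27337692) and *Furin* (chr7:80388585-80405436) are on the minus strand of the chromosome that also carries the deleted *Tgfb1* (chr7:25687002-25705077, plus strand). *Ltbp1* (chr17:75005568-75392512), *Ltbp3* (chr19:5740904-5758532), *Itgav* (chr2:83724397-83806916) and *Itgb5* (chr16:33829665-33949338) are on the plus strand.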

How the data were processed

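The authors sequenced non-directional poly-A libraries of cultured dermal fibroblasts (4 control, 4 TGFβ1FKO) in paired-end mode. Per the labels, CASAVA 1.8, HISAT2 2.0.5, featureCounts 1.5.0-p3, R 4.3.2 and DESeq2 1.42.0 were used, with GRCm38. The deposited values are a signal, normalised counts that the authors made by dividing reads by a library size factor, with 0.5 added; genes with low counts had been left out, and the lowest sum over the 8 libraries was 41 reads. The authors' columns of their own comparison (fold change, standard error, test statistic and p-values) were not used.

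The 0.5 was subtracted, which left whole multiples of 1 step per library (tolerance 0.05 reads). log2(normalised count + 1) was compared with limma 3.58.1 (R 4.3.3) with a mean-variance trend and Benjamini-Hochberg adjustment over 15111 genes, and genes were called at adjusted p under 0.05 with an absolute log2 fold change over 0.6. Fold changes on this scale understate changes of low genes. Single values were compared with two-sided exact permutation tests (scipy 1.17.1). Lengths are the union of exons in GENCODE gene models, matched for 15098 genes. The fit was tested on simulated data, with changes larger than that of *Itgb8* and only in more abundant genes. That test therefore does not cover genes as low as *Itgb8*. Depth limits genes with few reads, and intervals cover the spread between libraries.

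The 8 genes, the further pathway genes and the marker lists were chosen with earlier results of these data known, and some genes of these lists or overlapping the 8 genes are not reported here. Beyond the 8 genes, named genes are pathway genes that were called, had an unadjusted p under 0.05 or groups without overlap, the highest and lowest of each role, all ligands, integrin subunits and convertases, the 2 genes most alike to each of the 8, overlapping genes, and markers that moved or are at 0; *Fbn1*, *Tgm2* and *Thbs1* were named for their role. Alternatives were other pseudocounts, a filter of 10 reads, TMM, a replicate block, leaving out each library, another gene length, quantile normalisation, library weights and robust empirical Bayes.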

Additional observations from a re-analysis of the deposited data

Results flagged for a closer look

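Of 88 groups of 4 libraries examined, one group per gene and genotype among the 8 genes, the pathway genes and the measures made from them, 5 held a library whose gap to its nearest neighbour exceeded Dixon's 95% critical value, where chance gives about 4.4. *Itgb5* stood at 16161 normalised counts in control 4, against 12404 to 12970 in the other controls. TGFβ1FKO library 3 stood apart for *Lrrc32* at 5740 (the others 4792 to 4883) and for *Mmp14*, a membrane-bound metalloproteinase gene, at 33120 (37522 to 37913). Control 4 stood apart for *Plau*, the urokinase gene, at 852.3 (1052 to 1093), and control 1 for *Mmp9* at 13.8 (3.95 to 4.44).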

How the results depend on the processing

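Each of the 8 genes kept the direction of its log2 fold change in all 16 alternatives run, and 0 of the 8 passed the test in any of them. The replicate block, robust empirical Bayes and the filter of 10 reads leave the fold change of a gene as it was, so the direction could not turn in those. For *Itgb8* the log2 fold change ranged from -1.67 to -1.26 and the limma adjusted p from 0.0922 to 0.601. With 1 library left out the log2 fold change ranged from 0.06 to 0.21 for *Ltbp1*, from -0.15 to -0.06 for *Ltbp3*, from 0.08 to 0.16 for *Itgav*, from -0.17 to -0.007 for *Itgb5* and from -0.09 to -0.05 for *Furin*. The number of genes called over the table, 13, was 3 when each library had to hold 10 reads or more (12946 genes tested), 31 with the replicate number as a block, 8 after quantile normalisation and 31 with library weights, and between 5 and 32 with 1 library left out, the highest without control 4. The cause was not tested. Same-numbered libraries had correlations of 0.16, -0.13, 0.05 and 0.16, and not every library correlated best with its own number. Pairing by number was thus not shown, though 4 libraries per group are too few to settle it. Quantile normalisation, library weights, robust empirical Bayes and leaving *Tgfb1* out of the ligands were chosen after seeing the data. The share of *Ltbp1* in the binding proteins, 0.16 percentage points higher in TGFβ1FKO, ranged from -0.82 to 1.01 with 1 library left out and turned to -0.82 without control 2, -0.19 without control 3 and -0.30 without TGFβ1FKO library 2. The share of *Itgb8* in *Itgb5* and *Itgb8* was -0.0782 percentage points with the block (exact sign-flip p = 0.125) and -0.0969 to -0.0599 with 1 library left out (exact permutation p = 0.0571). The log2 ratio of binding proteins to ligands, 0.40, was 0.40 with the block, 0.032 with *Tgfb1* left out, 0.65 with the longest transcript as gene length and 0.34 to 0.48 with 1 library left out. Neither 3 libraries against 4 nor 4 blocked pairs can reach 0.05, as their smallest exact p-values are 0.0571 and 0.125. The planned edgeR quasi-likelihood test and both DESeq2 tests were not run: the deposited values, normalised counts with 0.5 added, were treated as a signal, although whole reads could be recovered from them. *Nrros* and *Mmp9*, with 3 to 16 reads per library, are limited by depth.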
